A study of Mus musculus with 12 samples.

Results

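Platelet glycoproteins and megakaryocyte products were followed in whole mouse bone marrow as 10 genes, read by symbol from the deposited tables: Gp1ba, Gp1bb, Gp9, Gp5, Itga2b, Itgb3, Treml1, Vwf, Pf4 and Ppbp. All 10 were among the 53801 genes of the tables and among the 15119 that were abundant enough to test. The marrow came from C57BL/6N mice in 4 groups of 3 libraries each. MI-E mice had a myocardial infarction, made by tying the left anterior descending coronary artery (LAD), and were given EMPA, as the labels call the agent. MI mice had the infarction without EMPA, Sham-E mice had the sham operation with EMPA, and Sham mice had the sham operation alone. None of the groups was without surgery. Age, sex, the dose of EMPA and the time of sampling are not stated in the labels, nor is it stated whether the libraries are from different mice. The p-values therefore measure the spread between these libraries, which may be technical.

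Megakaryocytes are the large marrow cells that shed platelets. GPIb-IX-V, the receptor by which platelets catch on von Willebrand factor in flowing blood, is built from the products of Gp1ba, Gp1bb, Gp9 and Gp5. Itga2b and Itgb3 encode the chains of the integrin alphaIIb beta3, which binds fibrinogen and links platelets to each other. Von Willebrand factor (Vwf), platelet factor 4 (Pf4) and pro-platelet basic protein (Ppbp) are stored in platelet granules and released on activation, and Treml1 encodes a granule membrane receptor of the TREM family. GATA1, FLI1, RUNX1 and NFE2 are among the factors known to drive these genes. Some members are not made by megakaryocytes alone: endothelial cells make Vwf, osteoclasts make Itgb3, and early progenitors carry Itga2b.

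Promoters of 5 members are shown as examples. The members as a set varied together between libraries, and GATA and ETS family factors are known to act on megakaryocyte promoters. The 5 promoters shown include that of the member closest to this shared pattern, Gp5, and that of the farthest, Ppbp. All 5 hold the word GATA. Each is the 250 bases before the RefSeq start on GRCm38.p6, written 5′ to 3′ on the gene's strand, with the words GATA (or TATC) and GGAA (or TTCC) in capitals, so both strands are marked.

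Gp9, chr6:87777820-87778069, plus strand: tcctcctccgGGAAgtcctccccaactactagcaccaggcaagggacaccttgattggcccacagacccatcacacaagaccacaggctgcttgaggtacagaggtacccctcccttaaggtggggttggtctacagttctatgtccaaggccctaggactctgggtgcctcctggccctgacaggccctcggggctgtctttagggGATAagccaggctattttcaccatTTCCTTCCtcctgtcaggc
Gp5, chr16:30310782-30311031, minus strand: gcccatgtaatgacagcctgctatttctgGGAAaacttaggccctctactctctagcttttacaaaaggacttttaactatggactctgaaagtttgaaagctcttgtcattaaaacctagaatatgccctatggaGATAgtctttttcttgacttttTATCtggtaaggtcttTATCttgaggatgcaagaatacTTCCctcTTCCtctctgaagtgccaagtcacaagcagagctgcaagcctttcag
Gp1ba, chr11:70638872-70639121, plus strand: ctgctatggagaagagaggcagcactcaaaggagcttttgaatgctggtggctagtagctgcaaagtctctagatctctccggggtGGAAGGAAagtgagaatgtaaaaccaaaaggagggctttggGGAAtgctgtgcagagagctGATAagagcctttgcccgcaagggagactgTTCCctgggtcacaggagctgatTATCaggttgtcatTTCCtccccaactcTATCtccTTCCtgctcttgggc
Ppbp, chr5:90768268-90768517, plus strand: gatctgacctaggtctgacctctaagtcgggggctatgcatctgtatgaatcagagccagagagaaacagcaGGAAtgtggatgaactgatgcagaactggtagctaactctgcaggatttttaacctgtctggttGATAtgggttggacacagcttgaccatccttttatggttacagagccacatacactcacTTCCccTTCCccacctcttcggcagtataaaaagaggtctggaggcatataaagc
Pf4, chr5:90772185-90772434, plus strand: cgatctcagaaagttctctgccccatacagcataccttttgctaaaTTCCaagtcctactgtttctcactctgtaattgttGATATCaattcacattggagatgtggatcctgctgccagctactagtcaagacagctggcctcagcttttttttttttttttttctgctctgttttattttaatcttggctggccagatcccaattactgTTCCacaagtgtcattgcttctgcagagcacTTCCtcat

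The RefSeq table held a promoter for 8 of the 10 members. The word GATA stood in 7 of the 8 on either strand, against 53.62% of 32851 promoters of the same length. Itga2b, which is not among those shown, was the one without it. GGAA, the core of ETS sites, stood in 8 of 8, against 93.45% of all promoters. The longer words AGATAA (which holds GATA) and GGAAG (which holds GGAA) were searched after the data were seen; they stood in 1 of 8, Gp5, against 9.99%, and in 8 of 8, against 64.07%. CANNTG, the E-box word, stood in 5 of 8, against 66.22%. GATA began 43 bases before the start of Gp9 on the gene's strand, and Gp1ba held 3 matches. Pf4 and Ppbp are neighbours on chromosome 5, with 2371 bases between the end of Ppbp and the start of Pf4. These are matches of letters and were not tested as binding sites.

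On mm10, with GENCODE M21 annotation, the members lie on 5 chromosomes. Gp1ba spans chr11:70639122-70642036 and Itgb3 chr11:104608000-104670476 on the plus strand, and Itga2b chr11:102453297-102470122 on the minus strand. Gp1bb spans chr16:18620317-18622403 and Gp5 chr16:30307685-30310779, both on the minus strand. Gp9 (chr6:87778072-87779768), Vwf (chr6:125546774-125686679), Treml1 (chr17:48359916-48367176), Ppbp (chr5:90768518-90770063) and Pf4 (chr5:90772435-90773383) are on the plus strand. Counts and TPM are per gene over all its exons, and 9 of the 10 genes share no exon base with another annotated gene on their strand.

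The libraries held 21175087 to 24606783 counts. Levels below are CPM (counts scaled to TMM-adjusted library size), or the deposited TPM where genes are set against each other, since TPM is scaled by transcript length. The marrow label fitted its markers, with 10163 ± 430 CPM of the neutrophil gene S100a8 in Sham libraries and 9827 ± 1723 CPM of the beta globin gene Hbb-bs (SD, n = 3 each). Mean fragment length, recovered from the deposited counts and TPM, was 280.1 to 282.8 bases in MI-E, 263.3 to 265.1 in MI, 271.0 to 280.5 in Sham-E and 284.5 to 287.3 in Sham libraries. MI libraries thus had shorter fragments than all others, Sham-E libraries shorter ones than Sham, and MI-E and Sham-E overlapped; the part of this difference in the results was not tested.

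Among the members, Pf4 had the highest mean TPM in each group, with 105.8 ± 34.7 in MI-E, 59.8 ± 26.6 in MI, 34.8 ± 21.2 in Sham-E and 64.5 ± 34.8 in Sham libraries (SD, n = 3 each). Ppbp followed in MI-E with 64.7 ± 6.29 TPM, then Itga2b with 34.1 ± 6.42 TPM. Gp9 reached 25.02 ± 4.19 TPM and Gp1ba, the ligand-binding chain of the same receptor, 3.30 ± 0.627 TPM in MI-E, the lowest level of the 10 there. In CPM, the MI-E mean was the highest of the 4 groups for 10 of 10 members, against 27.8% of all genes tested. Sham-E had the lowest mean for 6 of them and MI for 4. The libraries of MI overlapped with those of Sham, and those of Sham-E with those of Sham, for each member, so the order of these groups below MI-E did not hold beyond the spread. In the deposited TPM, Itgb3 alone had its highest mean outside MI-E, with 13.6 ± 2.39 in Sham and 11.9 ± 1.56 in MI-E (SD, n = 3 each).

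**Figure D1:**
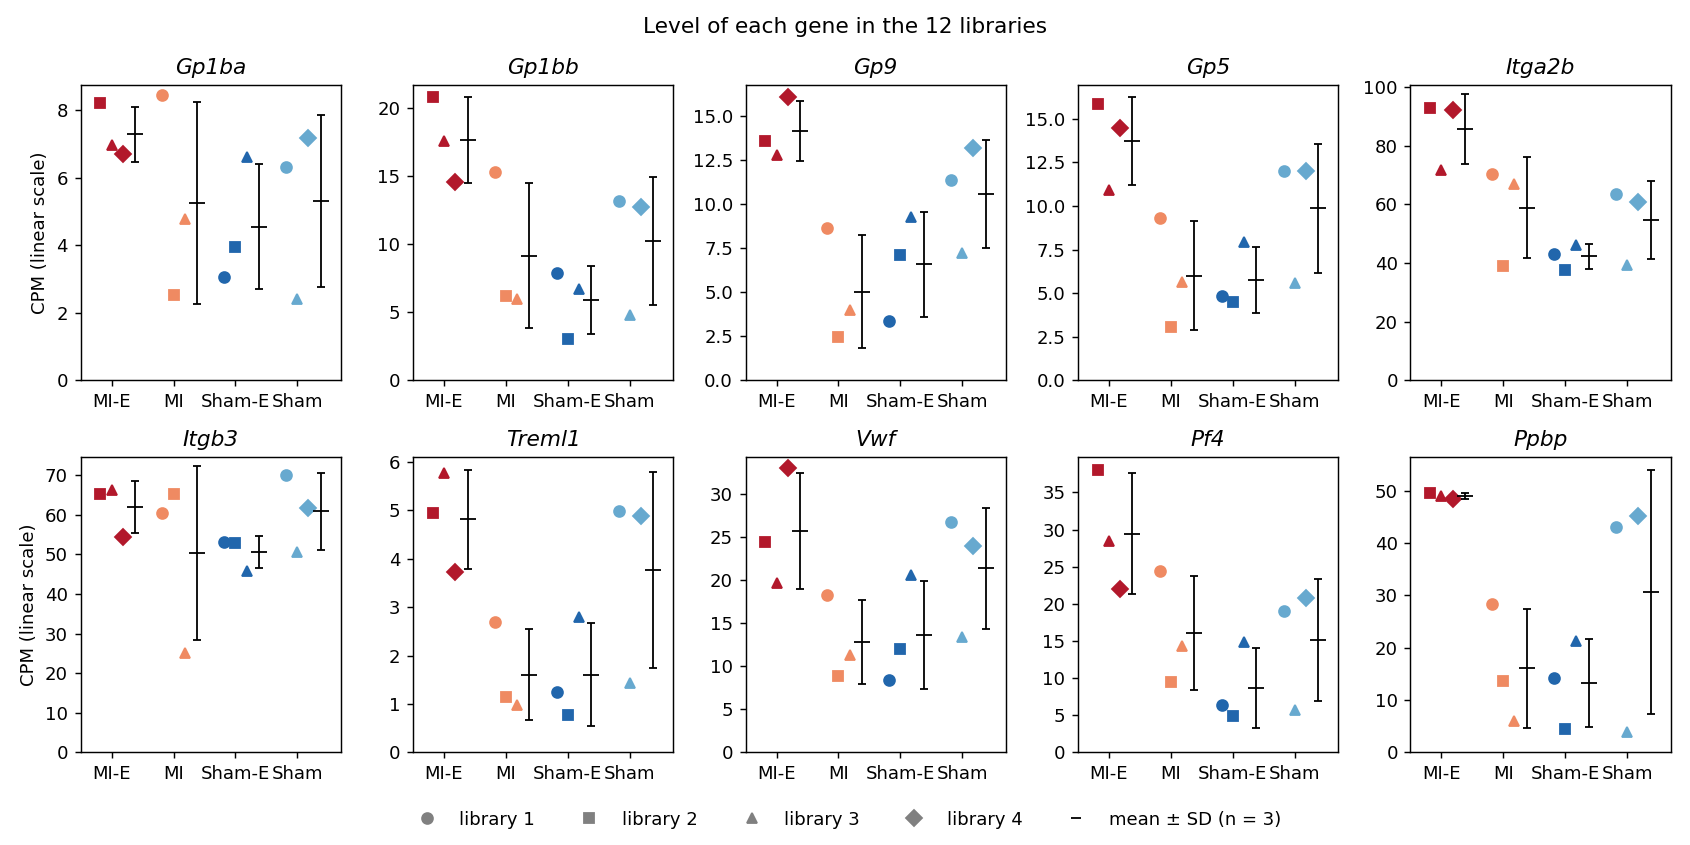
CPM of each of the 10 genes in the 12 libraries, by group, with marker shape giving the library number and the black bar the mean ± SD of 3 libraries. The MI-E libraries stand together near the top in most panels, while Sham 3, MI 2 and Sham-E 2 are often low in their groups.

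The GPIb-IX-V genes had higher means in MI-E than in MI and in Sham-E, and none passed the threshold of an adjusted p of 0.05. Gp9 had 13.6, 12.8 and 16.1 CPM in the MI-E libraries, against 8.65, 2.48 and 3.996 CPM in MI. It had 3.37, 7.10 and 9.29 CPM in Sham-E and 11.4, 7.22 and 13.2 CPM in Sham. Each MI-E library was above each MI library, and Sham overlapped with MI-E and with Sham-E. Gp9 was 2.79-fold higher in MI-E than in MI, with a log2 fold change of 1.48 ± 0.44 (SE; adjusted p = 0.148 by edgeR). Without MI 1, the highest MI library, the value was 2.13 and passed (edgeR adjusted p = 0.021). Without MI 2, the lowest, it was 1.16. Against Sham, MI had a log2 fold change of -1.06 ± 0.44 for this gene (edgeR adjusted p = 0.21), or -1.71 without MI 1 and -0.74 without MI 2.

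Gp5, which encodes the thrombin-cleaved chain of the receptor, had 15.8, 10.9 and 14.5 CPM in MI-E, against 9.32, 3.07 and 5.62 CPM in MI. It had 4.84, 4.46 and 7.95 CPM in Sham-E and 12.0, 5.58 and 12.0 CPM in Sham. MI-E was again clear of MI and of Sham-E, with log2 fold changes of 1.19 ± 0.40 (edgeR adjusted p = 0.174) and 1.26 ± 0.40 (0.269). Without MI 1, the highest MI library, the MI-E to MI value was 1.66 and passed (edgeR adjusted p = 0.041). Without MI 2, the lowest, it was 0.88.

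Gp1ba had 8.21, 6.96 and 6.69 CPM in MI-E, against 8.44, 2.53 and 4.79 CPM in MI. It had 3.07, 3.96 and 6.62 CPM in Sham-E and 6.31, 2.42 and 7.19 CPM in Sham. MI 1 was the highest of the 12 libraries here, so MI-E and MI overlapped, with a log2 difference of 0.47 ± 0.46 (edgeR adjusted p = 0.631).

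Gp1bb, the disulphide partner of Gp1ba, had 20.8, 17.6 and 14.6 CPM in MI-E, against 15.3, 6.20 and 5.97 CPM in MI. It had 7.91, 3.07 and 6.71 CPM in Sham-E and 13.1, 4.80 and 12.7 CPM in Sham. MI-E was clear of Sham-E (1.58 ± 0.48, edgeR adjusted p = 0.258) and overlapped with MI (0.94 ± 0.47, 0.319). These counts are uncertain: 91.136% of the 2087 exon bases of Gp1bb lie in exons of Sept5 on the same strand, a septin gene with 36921 counts over the 12 libraries against 2951 for Gp1bb. Sept5 itself had 124, 180 and 127 CPM in MI-E, against 186, 167 and 100.3 CPM in MI (log2 fold change -0.07 ± 0.25, edgeR adjusted p = 0.914).

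The integrin genes had the most CPM of the members in MI-E. Itga2b had 93.0, 71.8 and 92.3 CPM in MI-E, against 70.5, 39.0 and 67.1 CPM in MI. It had 43.1, 37.7 and 46.1 CPM in Sham-E and 63.7, 39.4 and 60.9 CPM in Sham. MI-E libraries were above all others for this gene. The log2 fold change was 0.54 ± 0.23 to MI (edgeR adjusted p = 0.254) and 1.02 ± 0.23 to Sham-E (0.244). The second value had the smallest p among the members in that comparison, at rank 38 of 15119 genes. It passed without MI 2 (edgeR adjusted p = 0.043), with the log2 fold change still at 1.02. MI 2 is in neither of the groups compared and enters only the shared fit.

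Itgb3, the partner chain, had 65.2, 66.4 and 54.4 CPM in MI-E, against 60.5, 65.3 and 25.1 CPM in MI. It had 53.1, 53.0 and 45.9 CPM in Sham-E and 70.1, 50.6 and 61.7 CPM in Sham. MI 3 was the lowest of the 12 libraries, and the log2 fold change of 0.30 ± 0.27 between MI-E and MI (edgeR adjusted p = 0.602) was -0.02 without it. MI-E was above Sham-E by 0.29 ± 0.27 on the log2 scale without overlap (edgeR adjusted p = 0.652). The osteoclast markers Calcr, Dcstamp and Oscar had at most 5 counts in a library. Of this list, 4 of 11 were at 0 in some library, and Calcr was at 0 in 9 of 12. The list summed to 1907 to 2393 CPM in MI-E, 1657 to 2744 in MI, 1501 to 2014 in Sham-E and 1540 to 1764 in Sham, most of it from Mmp9, a gelatinase gene that neutrophils also express. Its part in the Itgb3 level was not tested.

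Treml1 was the least abundant member in CPM, with 4.95, 5.77 and 3.73 CPM in MI-E, against 2.69, 1.14 and 0.987 CPM in MI. It had 1.25, 0.776 and 2.80 CPM in Sham-E and 4.99, 1.44 and 4.88 CPM in Sham. MI-E was clear of MI and of Sham-E, and Sham 1 and Sham 4 were as high as MI-E. The log2 fold change was 1.57 ± 0.56 in MI-E against MI (edgeR adjusted p = 0.192) and 1.58 ± 0.56 against Sham-E (0.292). In MI and Sham-E against Sham it was -1.22 ± 0.56 (edgeR adjusted p = 0.257) and -1.23 ± 0.56 (1.00).

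Of the granule products, Ppbp differed most between libraries. It had 49.6, 49.0 and 48.5 CPM in MI-E, against 28.4, 13.7 and 5.97 CPM in MI. It had 14.2, 4.43 and 21.2 CPM in Sham-E and 43.0, 3.82 and 45.1 CPM in Sham. The MI-E libraries lay close together and above all others, while Sham 3 was far below Sham 1 and Sham 4. Ppbp was 3.05-fold higher in MI-E than in MI, with a log2 difference of 1.61 ± 0.81 (edgeR adjusted p = 0.333). Sham-E was lower than Sham by a log2 fold change of -1.21 ± 0.81, or -1.74 without Sham 3 (edgeR adjusted p = 1.00 with all libraries).

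Pf4, a chemokine that binds heparin, had 38.0, 28.4 and 21.9 CPM in MI-E, against 24.4, 9.47 and 14.4 CPM in MI. It had 6.36, 4.85 and 14.9 CPM in Sham-E and 19.0, 5.66 and 20.7 CPM in Sham. MI 1 lay within the range of MI-E, and MI-E was clear of Sham-E. Pf4 was 3.39-fold higher in MI-E than in Sham-E, a log2 difference of 1.76 ± 0.55 (edgeR adjusted p = 0.272), and 0.87 ± 0.54 higher on the log2 scale than in MI (0.424).

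Vwf had 24.4, 19.7 and 33.0 CPM in MI-E, against 18.2, 8.87 and 11.3 CPM in MI. It had 8.35, 12.0 and 20.5 CPM in Sham-E and 26.7, 13.4 and 23.9 CPM in Sham. MI-E was clear of MI, at a log2 difference of 1.00 ± 0.38 (edgeR adjusted p = 0.213), and Sham-E 3 lay within the range of MI-E. In the deposited TPM, MI-E had 13.7 ± 0.289, MI 7.88 ± 1.71, Sham-E 5.18 ± 2.91 and Sham 9.02 ± 1.92 (SD, n = 3 each), so MI-E stood apart from all 3 other groups on that scale.

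Since 15 endothelial markers were also read, their values stand beside Vwf. They summed to 134 to 145 CPM in MI-E, 109 to 128 in MI, 110.4 to 172 in Sham-E and 139 to 176 in Sham. MI-E and MI did not overlap, whereas Sham-E and Sham did. Of 14 tested, 11 had a positive log2 fold change in MI-E against MI, with a median of 0.31, and 5 in MI-E against Sham-E, with a median of -0.07. Pecam1, the most abundant gene of the list and a large part of its sum, had 63.3 ± 1.79 CPM in MI-E, against 60.5 ± 3.79 CPM in MI (SD, n = 3 each). Which marrow cells carried Pecam1 was not measured. Sox17 was at 0 in Sham 3. The part of endothelial cells in the Vwf level was not tested. In whole marrow, fewer megakaryocytes and less of these transcripts per cell cannot be told apart, for any of the 10 genes.

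**Figure D2:**
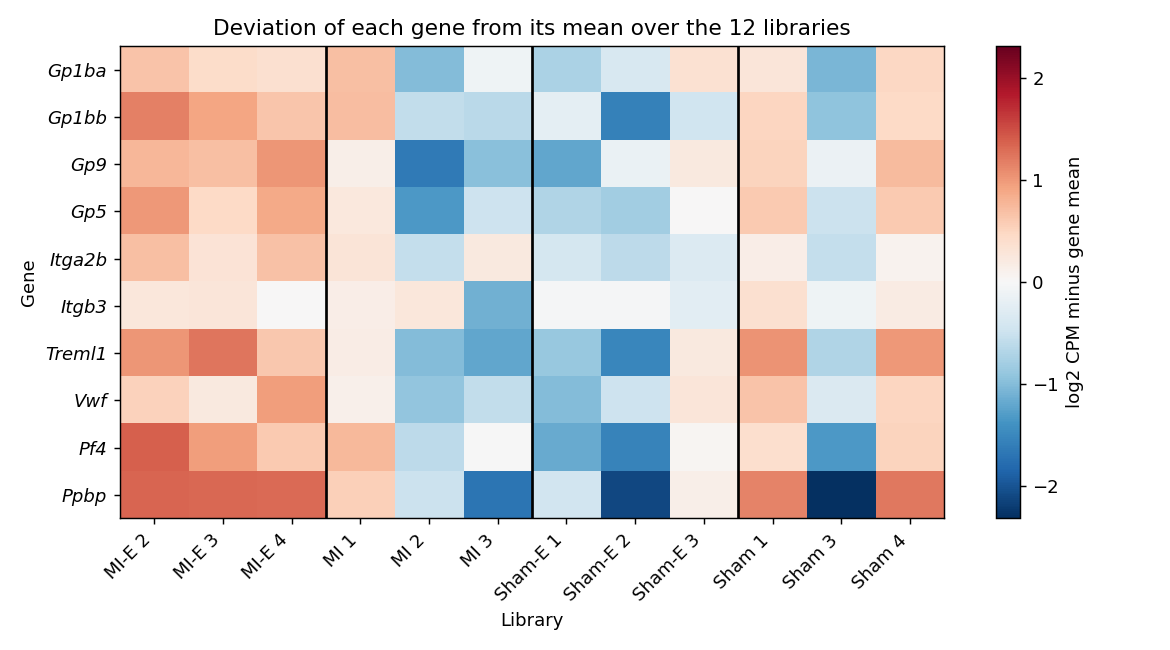
Deviation of log2 CPM from the mean of each gene over 12 libraries, with red above and blue below that mean and lines between the groups. The columns MI-E 2, MI-E 3, MI-E 4, MI 1, Sham 1 and Sham 4 are mostly red, and MI 2, MI 3, Sham-E 1, Sham-E 2 and Sham 3 mostly blue.

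The members varied together from library to library within groups. Averaged over the 10 genes, log2 CPM was above its mean over the 12 libraries by 0.89, 0.69 and 0.71 in the MI-E libraries. In MI it deviated by 0.38, -0.79 and -0.65, in Sham-E by -0.68, -0.92 and 0.03, and in Sham by 0.57, -0.79 and 0.58. Sham 3 was the lowest Sham library for 10 of 10 members, MI 1 the highest MI library for 9 and Sham-E 3 the highest Sham-E library for 8. MI-E 4, MI 2 and Sham-E 2 were each the lowest of their group for 6. The summed CPM of the members ran from 289 to 334 in MI-E. The sum was 145 to 246 CPM in MI, 131 to 182 in Sham-E and 134 to 270.4 in Sham, so MI-E lay above every other library.

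The fits gave each comparison over all members as follows. In MI-E against MI, which asked what EMPA did after infarction, 0 of 10 members passed an edgeR adjusted p of 0.05, against 0.00661% of all genes tested. At an unadjusted p under 0.05, 5 were higher, against a background of 8.52%; they were Gp9, Gp5, Itga2b, Treml1 and Vwf. In 6 members (those 5 and Ppbp) each MI-E library was above each MI library, against 11.6% of all genes. All 10 log2 fold changes were positive, against 47.6%, with a median of 0.97 where the median of all genes was -0.02. Itgb3 was the exception to the direction when MI 3 was left out. DESeq2 called 1 member, Gp9 (adjusted p = 0.028), against 3.31% of the genes it tested. Without MI 1, edgeR called 2 members, Gp9 and Gp5, against 6.39%.

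In MI-E against Sham-E, the infarction under EMPA, 0 of 10 members passed edgeR, against 0% of all genes. At an unadjusted p under 0.05, 8 were higher, against 5.99%, and the other two were Gp1ba and Itgb3. For 9 members, all but Vwf, each MI-E library was above each Sham-E library, against 11.7% of all genes. The 10 log2 fold changes were positive, against 50.4%, and their median was 1.18 where that of all genes was 0.00. DESeq2 called 3 members, against 1.01% of genes: Itga2b (adjusted p = 0.017), Pf4 (0.044) and Gp1bb (0.048). Without MI 2, which is in neither group and enters only the shared fit, edgeR called 1, Itga2b, against 0.38%.

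Infarction without EMPA, MI against Sham, gave log2 fold changes of both signs. By edgeR, 0 of 10 members passed, against 0.417% of all genes, and 1, Gp9, was lower at an unadjusted p under 0.05, against 8.61%. DESeq2 called none here. For no member were MI and Sham libraries apart, against 27.3% of all genes. Itga2b (0.11 ± 0.23, edgeR adjusted p = 0.826) and Pf4 (0.09 ± 0.54, 0.945) had positive log2 fold changes and 8 members negative ones, against 47.6% of all genes below 0. The median was -0.49, where that of all genes was 0.02. Both positive values were negative without Sham 3 and without MI 1.

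For EMPA after a sham operation, Sham-E against Sham, 10 of 10 log2 fold changes were negative, against 47.5% of all genes, with a median of -0.73 where that of all genes was 0.01. None of the 10 passed edgeR, against 0% of all genes, or DESeq2. Treml1 alone was lower at an unadjusted p under 0.05, against 0.681%. The libraries overlapped for each member, against 8.98% of all genes that did not overlap. Sham 3 was the lowest Sham library for each member, and without it the log2 fold changes of Ppbp and Gp1bb were -1.74 and -1.14, against -1.21 and -0.80 with it. Without Sham 4 that of Gp1ba was 0.06.

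The difference between the EMPA effects after infarction and after sham was tested as an interaction, (MI-E minus MI) less (Sham-E minus Sham). It was positive for 10 of 10 members, against 47% of all genes, with a median of 1.70 where that of all genes was -0.04. None of the 10 passed edgeR, against 0.00661%, and 7 had an unadjusted p under 0.05 with a positive value, against 6.22%. The largest were Ppbp (2.82 ± 1.14, edgeR adjusted p = 0.337), Treml1 (2.80 ± 0.80, 0.264), Gp9 (2.17 ± 0.62, 0.266) and Gp5 (1.97 ± 0.56, 0.266). DESeq2 called 2, Treml1 (adjusted p = 0.041) and Gp9 (0.043), against 0.917% of genes. Without MI 1, edgeR called 1, Gp9 (adjusted p = 0.045), against 0.97%. These comparisons share libraries: MI enters 3 of them, and so does each other group, so their signs are not independent of each other.

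**Figure D3:**
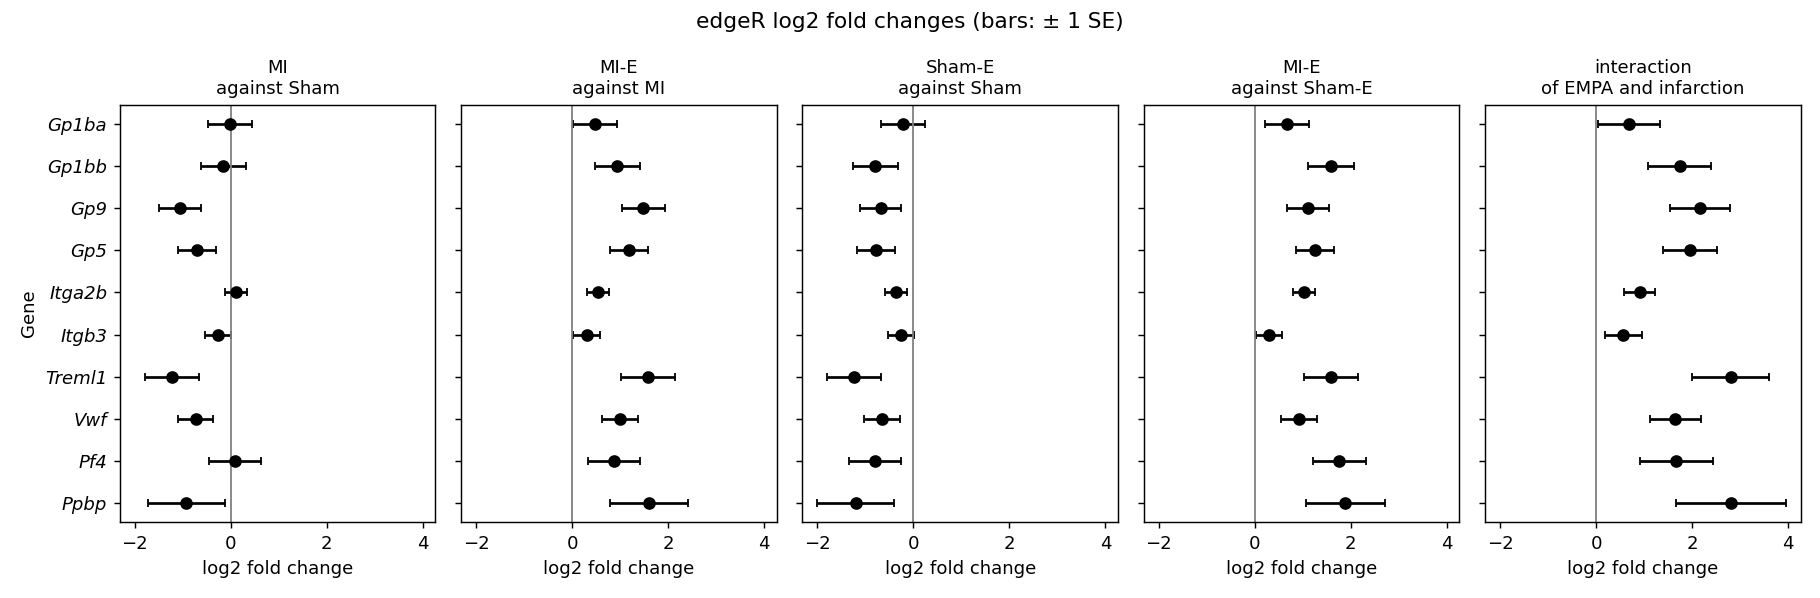
edgeR log2 fold change of each gene in the 5 comparisons, with bars of ± 1 SE. The points lie right of 0 for 10 of 10 genes in both comparisons of MI-E and in the interaction, and left of 0 for 10 of 10 in Sham-E against Sham.

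A further 73 genes of megakaryocytes and platelets, in 4 lists, were read for comparison, and 72 were tested. None passed edgeR in any of the 5 comparisons. In MI-E against MI, 44 of 72 log2 fold changes were positive, with a median of 0.11 beside 0.97 for the members. At an unadjusted p under 0.05, 7 of the 72 were higher in that comparison (9.72%, against 8.52% of all genes) and 1 was lower (1.39%, against 8.88%), so the share of higher genes was near that of all genes. In MI-E against Sham-E, 45 were positive, with a median of 0.13, and 12 were higher at that level (16.7%, against 5.99% of all genes) and 2 lower (2.78%, against 7.45%). The interaction was positive for 42, with a median of 0.13, and 8 were higher (11.1%, against 6.22%) and 4 lower (5.56%, against 7.28%). In MI against Sham, 32 were positive, and 9 were higher (12.5%, against 10.9%) and 5 lower (6.94%, against 8.61%). In Sham-E against Sham, 26 were positive, with 0 higher, against 1.22% of all genes, and 1 lower (1.39%, against 0.681%). Many of these genes are also active in other marrow cells.

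Of a list of 16 genes, mostly megakaryocyte transcription factors, 11 had a positive log2 fold change in MI-E against MI and 12 in MI-E against Sham-E, with medians of 0.12 and 0.19. Zfpm1, the cofactor of GATA1 known as FOG1, had 437 ± 153 CPM in MI-E, against 168 ± 56.7 CPM in MI (SD, n = 3 each), with libraries apart (1.38 ± 0.66, edgeR adjusted p = 0.309). Lyl1 had 170 ± 6.71 CPM in MI-E, against 116 ± 44.7 CPM in MI (0.55 ± 0.22, edgeR adjusted p = 0.231). Runx1 was lower in MI than in Sham, with 71.9 ± 1.90 and 88.7 ± 1.81 CPM (-0.30 ± 0.11, edgeR adjusted p = 0.155). Fli1 had an interaction of -0.64 ± 0.25 (edgeR adjusted p = 0.315), opposite in sign to the members.

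Of the 22 platelet receptor and signalling genes, 16 had a positive log2 fold change in MI-E against MI, 15 in MI-E against Sham-E and 17 in the interaction, with medians of 0.19, 0.20 and 0.46. The smallest p in MI-E against MI was that of Esam, an adhesion molecule of platelets and endothelium, with 2.86 ± 0.312 CPM in MI-E, against 1.23 ± 0.434 CPM in MI (SD, n = 3 each; log2 1.20 ± 0.38, edgeR adjusted p = 0.161). Its interaction was 1.94 ± 0.54 (edgeR adjusted p = 0.261). Clec1b, the podoplanin receptor, had 8.37 ± 0.219 CPM in MI-E, against 4.30 ± 1.16 CPM in Sham-E (0.96 ± 0.34, edgeR adjusted p = 0.287). P2rx1, an ATP-gated channel, had 36.5 ± 5.63 and 22.1 ± 6.41 CPM in these groups (0.73 ± 0.20, edgeR adjusted p = 0.244). P2rx1 was also higher in MI than in Sham, with means of 33.1 and 22.4 CPM and libraries apart (0.56 ± 0.20). Between MI-E and MI its log2 fold change was 0.14 ± 0.20, with overlap. Rgs18, a brake on G-protein signalling in platelets, was higher in MI than in Sham, with 93.3 ± 14.3 and 58.3 ± 9.35 CPM (0.68 ± 0.16, edgeR adjusted p = 0.069). In that comparison 8 of 10 members had the opposite sign.

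Of the 19 granule genes tested, 10 had a positive log2 fold change in MI-E against MI and 11 in MI-E against Sham-E, with medians of 0.06 and 0.12, and the interaction had a median of 0.01. The smallest p in MI-E against MI was that of Vps33b, a gene of granule biogenesis, which had 13.97 ± 0.212 CPM in MI-E, against 18.3 ± 3.04 CPM in MI, with libraries apart (-0.39 ± 0.16, edgeR adjusted p = 0.250). Rab27b, which serves granule secretion, had 6.81 ± 0.843 CPM in MI-E, 3.85 ± 0.954 in MI, 3.21 ± 1.04 in Sham-E and 6.37 ± 3.00 in Sham (SD, n = 3 each). Its interaction was 1.81 ± 0.53 (edgeR adjusted p = 0.266). Selp, encoding P-selectin, had 6.47 ± 1.32 CPM in MI-E, against 3.34 ± 1.39 CPM in Sham-E (0.96 ± 0.40, edgeR adjusted p = 0.338). The mean of Selp was 6.20 CPM in MI and 3.94 CPM in Sham, with overlap (0.65 ± 0.39). Between MI-E and MI its log2 fold change was 0.06 ± 0.39, with overlap. Mmrn1, encoding multimerin, had 3.39 ± 0.771 CPM in MI and 7.95 ± 2.94 CPM in Sham (-1.23 ± 0.37, edgeR adjusted p = 0.108), and Pdgfb 3.48 ± 0.307 and 5.98 ± 0.411 CPM (-0.78 ± 0.21, 0.092). Srgn, the granule proteoglycan serglycin of many blood cells, had 514 ± 82.4 CPM in MI and 311 ± 6.51 CPM in Sham (0.72 ± 0.26, edgeR adjusted p = 0.154). Its interaction was -0.95 ± 0.36 (edgeR adjusted p = 0.310), opposite in sign to the members.

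Of the 15 cytoskeletal and lipid enzyme genes, 8 had a negative log2 fold change in each comparison of MI-E and 11 a negative interaction, with medians of -0.08 against MI, -0.02 against Sham-E and -0.09 in the interaction. Myl9 and Alox12, which had the smallest p in both comparisons of MI-E, went the other way. Myl9, a myosin light chain, had 10.4 ± 0.251 CPM in MI-E, 3.38 ± 1.28 in MI, 2.93 ± 1.92 in Sham-E and 5.64 ± 3.94 in Sham (SD, n = 3 each). Its log2 fold change was 1.61 ± 0.60 in MI-E against MI (edgeR adjusted p = 0.210) and 1.83 ± 0.60 against Sham-E (0.279). Alox12, the platelet 12-lipoxygenase, had 15.7 ± 5.25 CPM in MI-E, against 5.34 ± 3.36 CPM in MI (1.55 ± 0.61, edgeR adjusted p = 0.237). Ptgs1, the cyclooxygenase of platelets, had 51.6 ± 3.20 CPM in MI-E, against 73.8 ± 29.8 CPM in Sham-E (-0.51 ± 0.22, edgeR adjusted p = 0.343), and an interaction of -0.69 ± 0.31 (edgeR adjusted p = 0.357). Rap1b, a switch for integrin activation that many marrow cells express, had 559 ± 67.1 CPM in MI and 366 ± 17.6 CPM in Sham (0.61 ± 0.17, edgeR adjusted p = 0.098).

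Genes outside the members whose pattern over the 12 libraries was most like the mean of the 10 were sought by the root mean square distance of centred log2 CPM (prior count 2). The 8 nearest were Cavin3 (0.23), Lrrc32 (0.23), Pth1r (0.24), Cavin1 (0.25), F2rl2 (0.25), Mrvi1 (0.26), Gnaz (0.29) and Fhl1 (0.29). F2rl2, which encodes the thrombin receptor PAR3 of mouse platelets, is on the receptor list. It had 6.83 ± 0.561 CPM in MI-E, 4.17 ± 1.61 in MI, 3.20 ± 1.31 in Sham-E and 5.03 ± 2.51 in Sham (SD, n = 3 each). Lrrc32, encoding the TGF-beta docking receptor GARP, had 4.08 ± 1.17 CPM in MI-E, against 1.94 ± 0.589 CPM in MI. Cavin3 and Pth1r had mean levels of at most 1.15 CPM in each group, where the prior count shrinks differences. Among the members, Gp5 was nearest to the common pattern (0.21) and Ppbp (0.75) and Itgb3 (0.60) farthest.

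**Figure D4:**
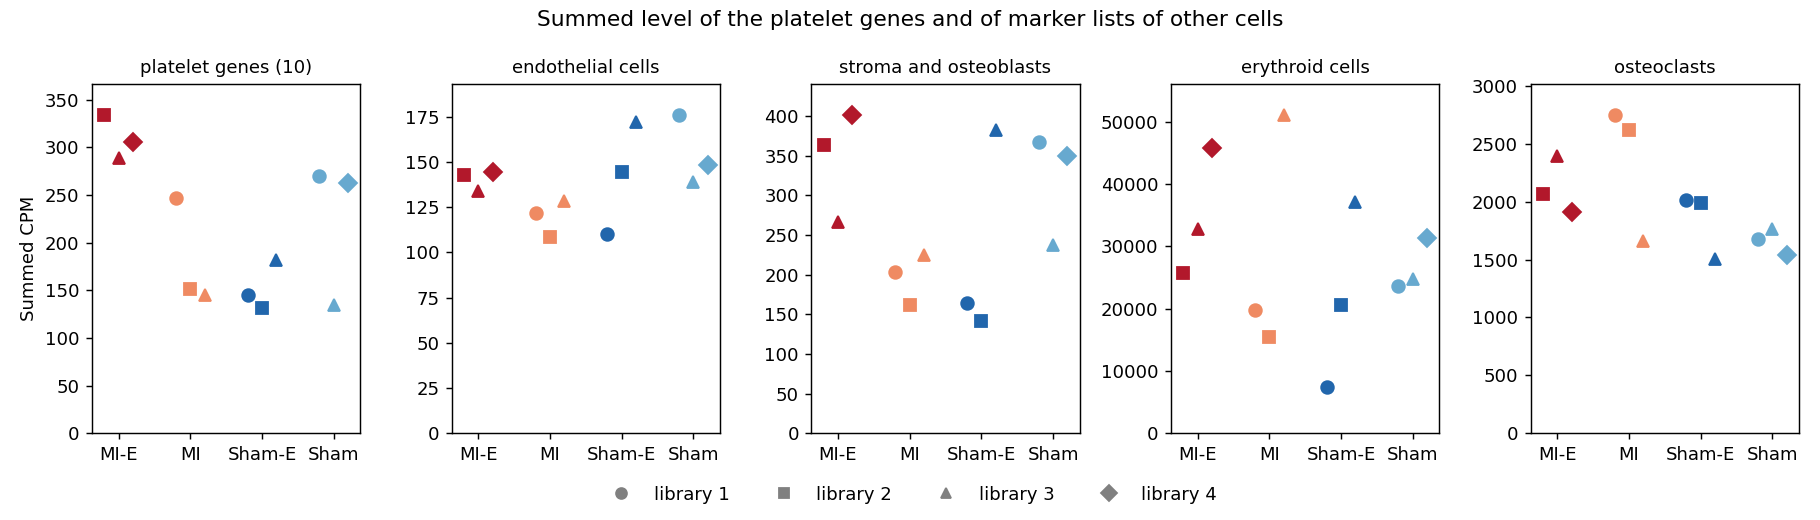
Summed CPM in the 12 libraries for the 10 platelet genes and for marker lists of endothelium, stroma with osteoblasts, erythroid cells and osteoclasts, with marker shape giving the library number. MI-E is above all other libraries for the platelet genes, and MI-E also lies above MI for the endothelial and stromal lists. In the stromal list most of that difference is Cxcl12.

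Marker lists of other cells moved with some of these comparisons. Over all genes tested, log2 fold changes were below 0 for 47.6% in MI against Sham and 47.5% in Sham-E against Sham. They were above 0 for 47.6% in MI-E against MI, 50.4% in MI-E against Sham-E and 47% in the interaction. The stroma and osteoblast list summed to 266 to 401 CPM in MI-E, 162 to 225 in MI, 141 to 383 in Sham-E and 238 to 367 in Sham, so MI-E and MI did not overlap, and Cxcl12 was its most abundant gene. Of its 10 genes, 7 had a positive log2 fold change in MI-E against MI and 5 in MI-E against Sham-E, and the osteoblast factor gene Sp7 was at 0 in 3 libraries. In MI against Sham and in Sham-E against Sham, 9 of the 10 were negative, with medians of -1.22 and -0.44. In MI against Sham 1 passed as lower (edgeR adjusted p = 0.037), where 0.417% of all genes passed in either direction. Erythroid genes summed to 25682 to 45776 CPM in MI-E, 15442 to 50995 in MI, 7432 to 37126 in Sham-E and 23612 to 31395 in Sham, and overlapped in each comparison. Of 17, the log2 fold change was positive for 15 in MI-E against MI and 17 in MI-E against Sham-E, and negative for 15 in Sham-E against Sham. Their mean log2 (CPM + 0.5) was 6.89 in Sham-E 1, 8.98 in Sham-E 2 and 9.82 in Sham-E 3, beside 9.16 to 9.52 in Sham. No erythroid marker was at 0. Sham-E 1 had the lowest erythroid sum, with a member sum of 146 CPM, and MI 3 the highest erythroid sum, with a member sum of 145 CPM. The B-lineage list summed to 1449 to 1746 CPM in MI-E, 1292 to 1624 in MI, 852 to 2439 in Sham-E and 2041 to 2964 in Sham. Its 10 genes were negative in MI against Sham (median -1.19) and in Sham-E against Sham (median -0.53), as most members were. In MI against Sham the libraries were apart for 10 of 10, against 27.3% of all genes in either direction. None of the 10 passed the edgeR threshold, and 5 were lower at an unadjusted p under 0.05, against 8.61% of all genes. In MI-E against MI, 5 of the 10 were positive, and in MI-E against Sham-E 1. Neutrophil genes summed to 43805 to 63154 CPM in MI-E, 37642 to 66473 in MI, 40463 to 66247 in Sham-E and 41790 to 44268 in Sham. Of 13, log2 fold changes were positive for 10 in MI against Sham and 12 in Sham-E against Sham, 4 in MI-E against MI and 5 in MI-E against Sham-E, and 12 had a negative interaction (median -0.43). In the interaction, the log2 value was positive for 9 of 10 stromal genes (median 1.52), 16 of 17 erythroid genes (0.70), 10 of 14 endothelial genes (0.20), and 9 of 10 B-lineage genes (0.56), beside 10 of 10 members (1.70). The part of these cells in the platelet gene results was not tested.

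How much transcript length lay behind each TPM was recovered from the ratio of count to TPM in each library. It varied by at most 1.16 times between libraries for 7 members, by 1.35 times for Treml1 and by 1.73 times for Gp1bb. Vwf varied most, 2.80 times, with effective lengths of 1399 to 2511 bases in MI-E, 1331 to 2386 in MI, 2940 to 3727 in Sham-E and 2175 to 3478 in Sham. MI-E and Sham-E did not overlap. Vwf spans chromosome 6 from 125546774 to 125686679 on mm10, and GENCODE M21 gives it 11 transcripts of 334 to 8834 bases. Effective length is the abundance-weighted length of the transcripts to which reads were assigned, so Vwf counts and TPM give the libraries different relative levels. Gp1bb had 952 to 1033 bases in MI-E and 1272 to 1583 in MI, without overlap, beside its shared exons.

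**Figure D5:**
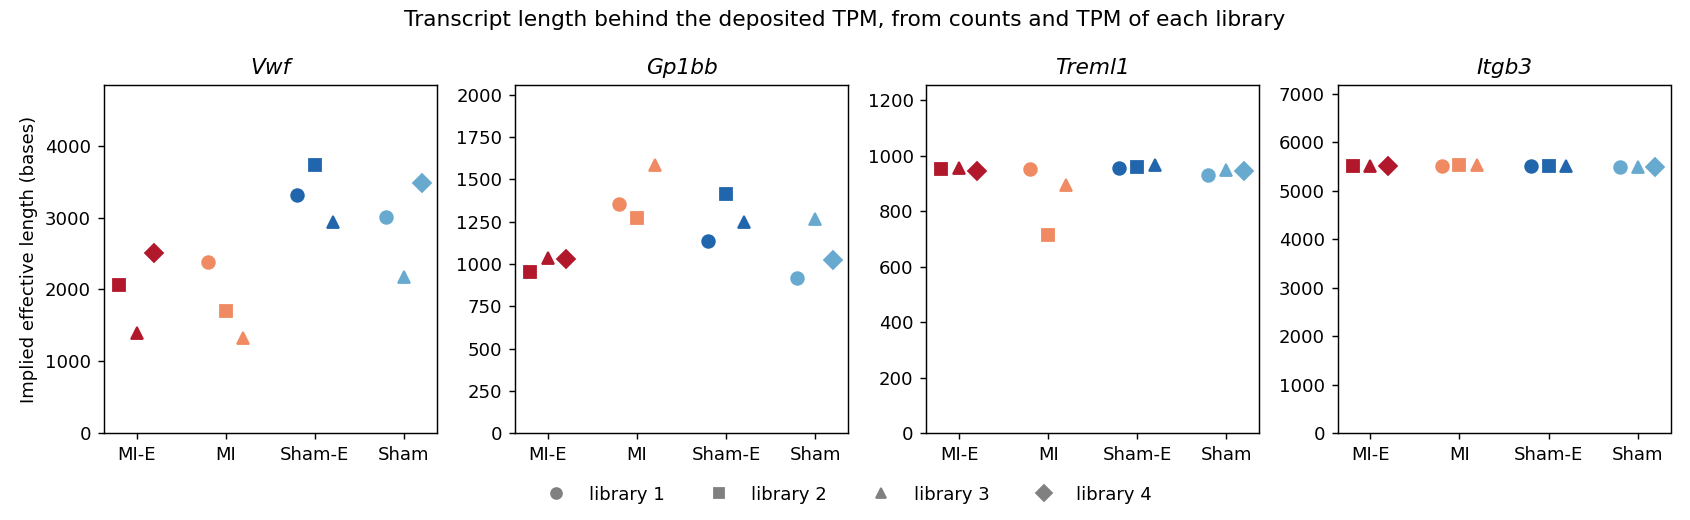
Effective transcript length in bases implied by the deposited counts and TPM, per library, for Vwf, Gp1bb, Treml1 and, as a stable gene, Itgb3. Vwf ranges from 1331 to 3727 bases, whereas Itgb3 stays between 5498 and 5526.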

How the data were processed

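Per the submitters' processing notes, CASAVA 1.8, STAR 2.4.0j and RSEM were used with build mm10; the strand setting and filters are not stated there. The deposited files hold expected counts by gene, unscaled and in whole numbers, and, in a second file, deposited TPM values scaled by transcript length. Column numbers (1, 3 and 4 for Sham, 2, 3 and 4 for MI-E) differ from the sample titles, so those columns were matched to groups alone; libraries are named by column number.

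The counts, treated as whole numbers, were kept by filterByExpr (15119 genes) and fitted with the quasi-likelihood test of edgeR 4.0.16 in R 4.3.3 (TMM, robust, 12 libraries, 8 residual degrees of freedom). P-values were adjusted by Benjamini-Hochberg across the tested genes and called below 0.05. Each SE was obtained by dividing the size of the log2 fold change by the root of its F statistic. Alternatives used RLE scaling, no filter, DESeq2 1.42.0, limma 3.58.1 on log2 TPM, a replicate block and each library left out. Scripts were tested on simulated data. The limit set on false calls there was applied to edgeR and limma alone. DESeq2 made more false calls and was not held to that limit, so its calls of members carry this caveat. Positions and exons came from GENCODE M21 (53620 of 53801 IDs), promoters from RefSeq on GRCm38.p6. Fragment length came from a line through count/TPM against length in genes with 1 transcript. Named genes were the 10 members, the 3 smallest p-values of each list per comparison (a selection of which is described) and the 8 nearest profiles. Members, lists and tests were chosen with earlier results of these data known. One gene of these lists is counted in them and not reported by name here.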

Additional observations from a re-analysis of the deposited data

How the results depend on the processing

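Of 940 results under an alternative, 911 kept direction and side of the threshold, 10 single-gene values passed where they had not, and 19 changed sign; the cause was not tested. Genes past the threshold in MI against Sham numbered 63 in the reported fit, 156 without the filter, 982 with DESeq2, 344 with the groups alone, 276 and 263 with limma on log2 TPM with pseudocounts of 0.5 and 0.1, and 1 under the replicate block. In MI-E against MI there was 1, against 33 without the filter, 490 with DESeq2, 3 with the groups alone, and 71 and 73 with limma. DESeq2 called 2 genes in Sham-E against Sham, 135 in MI-E against Sham-E (0 by edgeR in both) and 140 for the interaction (1 by edgeR; 12 by limma with either pseudocount; 0 under the block). Members past the threshold were 0 with edgeR, and with DESeq2 1 in MI-E against MI, 3 in MI-E against Sham-E and 2 for the interaction. Positive members in MI against Sham were 2, or 1 with limma at either pseudocount and 3 under the block. In Sham-E against Sham 1 member was positive under the block and 0 in the reported fit.

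With one library left out, genes past the threshold ranged from 1 (without Sham 1) to 1224 (without Sham-E 1) in MI against Sham, from 1 to 988 (without MI 1) in MI-E against MI, from 0 to 0 in Sham-E against Sham, from 0 to 117 (without Sham-E 1) in MI-E against Sham-E and from 1 to 150 (without MI 1) for the interaction. Members past it ranged from 0 to 2 in MI-E against MI, from 0 to 1 in MI-E against Sham-E and for the interaction, and stayed at 0 otherwise. Positive members ranged from 0 (without Sham 3) to 5 (without MI 3) in MI against Sham, from 9 (without MI 3) to 10 in MI-E against MI and from 0 to 1 (without Sham 4) in Sham-E against Sham; they stayed at 10 in the other 2.

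Sign changes were in MI against Sham Itga2b (-0.018 with limma at either pseudocount; -0.11 to 0.33 over libraries left out), Gp1ba (0.16 under the block; -0.54 to 0.32), Gp1bb (-0.75 to 0.076), Pf4 (-0.35 to 0.37) and Itgb3 (-0.51 to 0.046). The others were Itgb3 in MI-E against MI (-0.020 to 0.53) and Gp1ba in Sham-E against Sham (0.082 under the block; -0.59 to 0.057). Over 13 pairs of libraries with the same column number, deviations correlated at -0.21 to 0.15, with 4 pairs over 0.1. Correlations over all genes cannot show whether libraries were handled together, and the labels do not say what the numbers mean. Whether the numbers pair the libraries is therefore not known, and the block result is given in this section alone. Gp1ba and Treml1 had under 10 CPM in each library, with as few as 51 and 20 counts. The part of depth in their spread was not tested.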

Other observations

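Ratios of members in the deposited TPM were computed within each library, which removes a factor shared by both genes. Itga2b over Itgb3 was 2.81, 2.31 and 3.54 in MI-E, 2.18, 1.27 and 5.12 in MI, 1.55, 1.54 and 1.99 in Sham-E and 1.76, 1.48 and 1.87 in Sham. Each MI-E library was above each Sham-E and Sham library, and MI, with both the lowest and the highest ratio, overlapped with all groups.

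Gp9 over Gp1ba was 6.48, 7.24 and 9.33 in MI-E, 3.84, 3.60 and 3.14 in MI, 4.13, 6.89 and 5.37 in Sham-E and 7.22, 11.9 and 7.22 in Sham. The MI libraries were below all 9 others, so these subunits of one receptor did not keep a fixed ratio between the groups. MI libraries also had the shortest fragments, and the part of that in the ratio was not tested.

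Ppbp over Pf4, neighbours on chromosome 5, was 0.488, 0.644 and 0.795 in MI-E, 0.415, 0.523 and 0.152 in MI, 0.822, 0.351 and 0.536 in Sham-E and 0.836, 0.239 and 0.779 in Sham. The groups overlapped.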
